A study of Mus musculus with 8 samples.

Results

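The replication-dependent histone genes of the mouse were followed in early embryos. Members were the genes whose symbol, read from the RefSeq accession of each transcript entry, started with Hist1h, Hist2h, Hist3h or Hist4h or carried the newer names H1f1 to H1f6, H2ac, H2bc, H3c or H4c with a number. The oocyte linker histone H1f8 (H1foo) was left out. This gave 63 of 24921 genes: 6 of class H1, 17 of H2A, 16 of H2B, 12 of H3 and 12 of H4. Of these, 53 lay on chromosome 13 and 10 on chromosome 3.

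RNA came from embryos of the C57BL/6 strain, and 8 Smart-seq libraries were made, 2 for each of the groups 2C, 8C, CX22 and CX45. All 8 carry the label "passages" with the value 1. 2C and 8C are taken here to mean 2-cell and 8-cell embryos. The labels give no genotype, age or treatment for CX22 and CX45, name no control and do not say how many embryos went into a library, so all 6 pairs of groups were compared. The series title is about RNA polymerase I and the chromatin architecture of embryos.

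Core histones H2A, H2B, H3 and H4 form the nucleosome around which DNA is wrapped, and linker histone H1 binds where the DNA enters and leaves it. The clustered genes are read mainly in S phase, lack introns, and produce mRNAs that end in a short stem-loop, bound by the protein SLBP, in place of a poly(A) tail. In the embryo they supply new chromatin at each cleavage, while the oocyte also leaves stored histone mRNA and protein. Smart-seq usually starts cDNA synthesis at poly(A) tails. The labels do not name the primer, so the levels below are those of the molecules copied, and what share of the histone mRNA that was is not known from these data.

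The 3' stem-loop is shown first, since it is the feature that sets these mRNAs apart. A run of 16 bases with 6 complementary bases on each side of a 4-base loop was found in GENCODE M21 transcripts of 43 of the 63 genes: 4 of 6 in H1, 10 of 17 in H2A, 9 of 16 in H2B, 9 of 12 in H3 and 11 of 12 in H4. The search took transcripts as annotated, and a gene with no match may have a model that stops before the loop. Capitals mark the stem. The first form below was found in 24 genes, among them H2ac8, H2ac23, H2ac24 and H1f4, and in no H4 gene. The second was found in 6 H4 genes, among them H4c3 and H4c4. The third belonged to H4c1 and the fourth to H4c9 and H4c14.
Form of H2ac8: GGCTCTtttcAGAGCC
Form of H4c3 and H4c4: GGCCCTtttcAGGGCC
Form of H4c1: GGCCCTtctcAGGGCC
Form of H4c14: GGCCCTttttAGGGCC
H4c3 and H4c4 carry the same 16 bases. Their levels are given below, and a link between the loop and the levels was not tested.

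Promoter windows from RefSeq (GRCm38.p6, 250 bases before to 50 after the annotated start) were available for 58 of the 63 genes. Each was searched on both strands for a TATA box spelled TATAAA, for a CCAAT box and for the octamer ATTTGCAT, a motif known from H2B promoters. A gene was counted if any of its windows held a match. TATAAA was present for 58.6% of these histone genes and for 15.7% of all 27025 genes with a window. CCAAT was present for 86.2% against 41.1%, and for all genes of H1, H2A, H2B and H3 but only 3 of 11 of H4. The octamer was present for 22.4% against 1.97%, namely for 6 of 17 H2A and 7 of 14 H2B genes and for 0 genes of the other classes. H2A and H2B genes often stand head to head and share a window, so their matches are not independent. A match describes the letters and is not a binding site.

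The 250 bases before the start are printed for 4 genes on which the results turn, with matches in capitals: H2ac8 (minus strand, chr13:23571221-23571470), H1f5 (minus strand, chr13:21780626-21780875), H4c4 (plus strand, chr13:23581318-23581567) and H4c3 (minus strand, chr13:23698459-23698708), all in GRCm38.p6.
H2ac8: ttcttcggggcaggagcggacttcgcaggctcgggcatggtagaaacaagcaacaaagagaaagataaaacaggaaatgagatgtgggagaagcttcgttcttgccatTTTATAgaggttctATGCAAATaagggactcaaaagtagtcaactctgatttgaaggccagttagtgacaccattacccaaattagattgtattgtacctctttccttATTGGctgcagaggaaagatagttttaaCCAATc
H1f5: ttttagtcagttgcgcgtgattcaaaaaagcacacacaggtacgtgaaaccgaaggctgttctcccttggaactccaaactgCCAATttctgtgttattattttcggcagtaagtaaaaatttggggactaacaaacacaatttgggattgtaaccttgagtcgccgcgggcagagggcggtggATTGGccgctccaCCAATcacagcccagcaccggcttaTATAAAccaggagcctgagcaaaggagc
H4c4: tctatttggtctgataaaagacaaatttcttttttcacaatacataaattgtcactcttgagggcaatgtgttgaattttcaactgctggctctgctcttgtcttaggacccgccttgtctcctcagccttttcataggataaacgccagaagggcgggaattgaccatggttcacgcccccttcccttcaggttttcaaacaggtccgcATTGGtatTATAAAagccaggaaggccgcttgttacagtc
H4c3: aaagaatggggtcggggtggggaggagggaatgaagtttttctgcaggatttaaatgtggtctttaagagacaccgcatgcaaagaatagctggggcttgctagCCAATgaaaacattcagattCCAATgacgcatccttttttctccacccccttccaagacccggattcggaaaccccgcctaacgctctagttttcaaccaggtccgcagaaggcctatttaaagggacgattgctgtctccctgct
Part of the H2ac8 stretch also lies before H2bc8, the head-to-head partner of H2ac8, whose transcript starts inside the stretch. That part holds the TATAAA and the octamer, which are spelled on the strand of H2bc8, so that both appear reversed and complemented as printed. H4c4 has 1 TATAAA in these bases and H4c3 has 0.

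Levels are FPKM, fragment counts divided by transcript length and by library size. FPKM is a share of a library, and in such bulk samples fewer cells of a kind and less RNA per cell cannot be told apart. The steps between low values gave an implied depth of 9780000 to 20290000 fragments per library, and 3 fragments on a transcript of 450 bases came to between 0.329 and 0.682 FPKM, a limit for counting error only. Between the 2C libraries the difference was about that of sampling noise (median chi-square 1.11 times that of chance, against 28.5 to 95.2 times in the other groups), and they were counted as 1 sample in the tests. CX22 was the least even group: 333 genes stood above 10 FPKM in 1 of its libraries and at 0 in the other, against 7 to 48 in the other groups. Of the stage markers, Zscan4d, a gene of the 2-cell stage, was at 63.6 to 148 FPKM in 2C and CX22, at 0 and 0.817 in 8C and at 11.8 and 26.7 in CX45. Zfp352, another of these markers, was at 96.3 to 126.1 FPKM in 2C and CX22 and at 1.86 and 0.916 in 8C. In CX45 Zfp352 was at 20.9 and 178.8 FPKM, so the 2 libraries of that group disagreed. The 9 listed cumulus and granulosa genes summed to 8.54 and 9.54 FPKM in 2C, 5.22 and 4.83 in CX22 and 0.863 or less in 8C and CX45, with Amh, Inha and Ptx3 at 0 throughout. Of this list Star was at 3.39 and 3.46 FPKM in 2C, Foxl2 at 2.64 and 3.18 and Adamts1 at 1.86 and 2.38. Limma called Star and Adamts1 lower in 8C and in CX45 than in 2C, and Star also lower in CX22 than in 2C. Both Star and Adamts1 were at 0 in CX22. The CX22 sum was mostly Foxl2 in replicate 1 (5.15 FPKM) and Tnfaip6 and Cyp19a1 in replicate 2 (2.7 and 2.1 FPKM). The part of such cells in the histone differences was not tested. Nanog, a pluripotency factor, was at 18.3 and 20.3 FPKM in 8C, at 4.54 and 6.53 in CX45 and at 0.307 or less in 2C and CX22.

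All 63 genes together summed to 99.4 and 95.8 FPKM in 2C. They summed to 773 and 463 FPKM in 8C and to 118 and 140 in CX22, while CX45 had 403 and 239. The 8C and CX45 libraries were thus above all libraries of 2C and CX22. These genes made up a small part of the measured RNA, from 0.0179% to 0.112% of all FPKM in a library. The classes took very different parts of it. H2A took 71.2% and 73.8% of the histone FPKM in 8C, and 53.8% and 79.1% in CX45, but 12.8% to 27.9% in 2C and CX22. H4 took 45.3% to 60.8% in 2C and CX22 and 10.1% to 18.9% in 8C and CX45. Class sums were not tested.

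**Figure D1:**
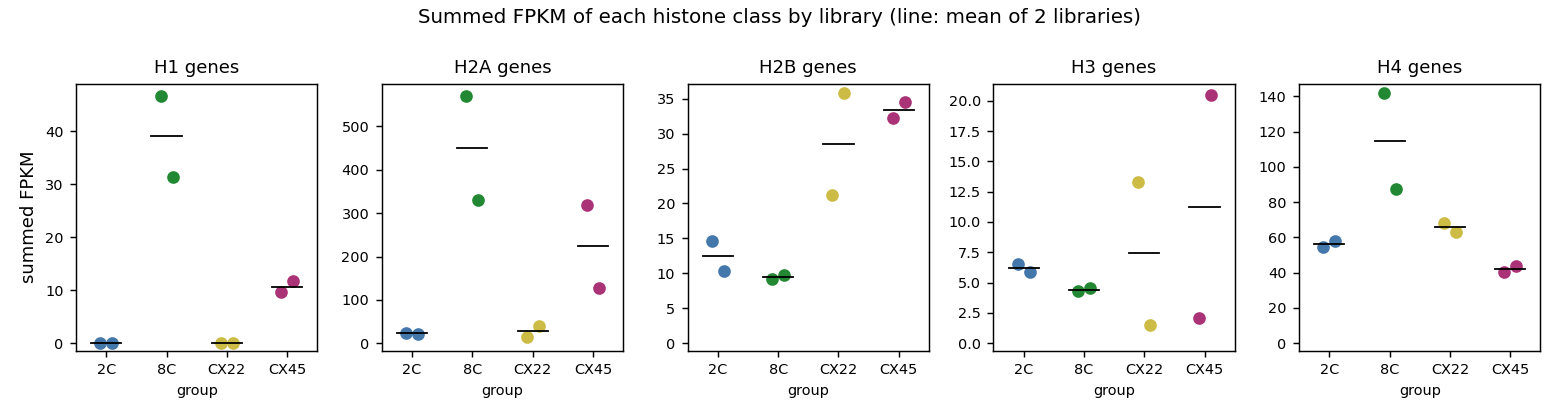
Summed FPKM (vertical axis, linear, separate scale per panel) of the genes of each histone class in each library; points are libraries, lines the mean of the 2 libraries of a group. H1 and H2A sums are high in 8C (31.4 and 46.7 for H1, 330 and 571 for H2A) and low in 2C and CX22, H2B sums are highest in CX22 and CX45, and H3 sums differ widely between the libraries of CX22 and of CX45.

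Across single genes, 58 of the 63 were above 0 in at least 1 library, and H1f6 (the testis linker histone H1t), H2ac19, H2ac21, H3c14 and H4c17 were listed at 0 in all 8. Of the 58, 24 had their highest group mean in 8C, 16 in CX45, 9 in 2C and 9 in CX22. In H2A, 12 of 15 genes were highest in 8C, and in H2B, 9 of 16 were highest in CX45. Over all genes tested the 4 groups took 27.7% (2C), 22.1% (8C), 20.9% (CX22) and 29.3% (CX45). The number of histone genes at 1 FPKM or more was 13 and 11 in 2C and 12 and 15 in CX22, against 25 in each 8C library and 22 and 31 in CX45.

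**Figure D2:**
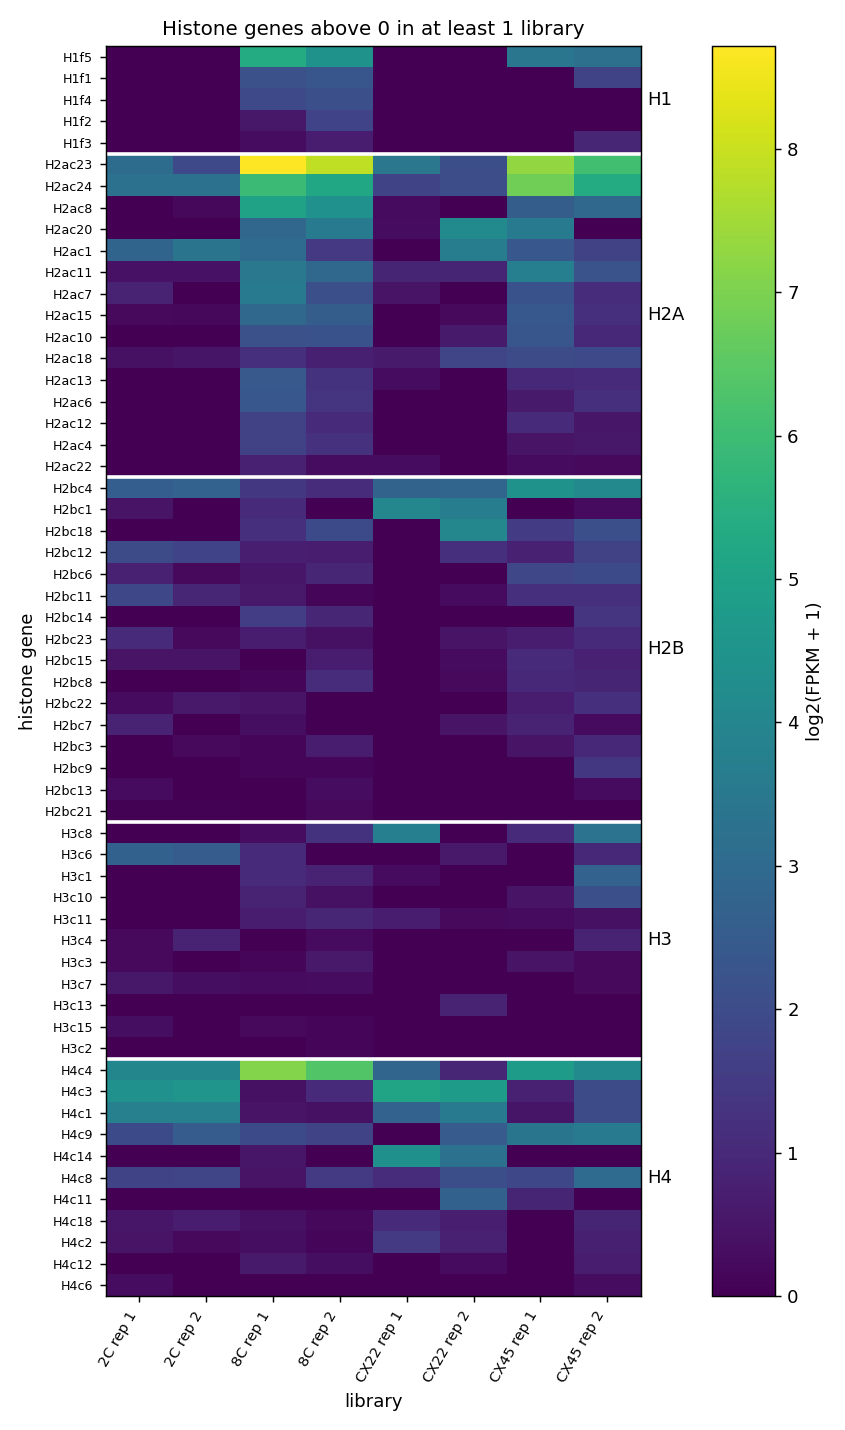
Level of each histone gene above 0 in at least 1 library (rows, ordered within class by mean level) in each library (columns), as log2(FPKM + 1) in colour. All 5 H1 rows and 11 of the 15 H2A rows are higher in both 8C libraries than in any of 2C and CX22, though some stay low in 8C too. The H2A exceptions are H2ac1, H2ac18, H2ac20 and H2ac22. The same holds for 2 of 16 H2B rows, 2 of 11 H3 rows and 2 of 11 H4 rows. The share of all genes that separate in this way was not counted, so these counts only describe the rows. In H4 the rows H4c3 and H4c1 show the reverse and H4c4 is light in 8C.

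Tests covered the 11873 genes that reached 1 FPKM in 2 or more libraries, 34 of them histone genes (3 H1, 14 H2A, 8 H2B, 3 H3 and 6 H4). A histone gene that is high in 1 group only could pass this filter through that group alone, so shares called among the 34 are descriptions and do not speak for the other 29. Limma calls required a Benjamini-Hochberg adjusted p under 0.05 across the genes tested, and a log2 fold change of 1 or more in size. Fold changes are on the log2(FPKM + 1) scale, which understates the change of low genes. The adjusted p depends on how many genes differ in a comparison, so the same difference is called more easily where many do.

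Between 8C and 2C, 12 of the 34 histone genes were called, 9 higher and 3 lower in 8C. The share, 35.3%, was near that of all genes tested, of which 37.1% were called (16.3% higher and 20.7% lower). By class the calls were 2 of 3 H1 genes higher, 7 of 14 H2A genes higher, 1 of 8 H2B genes lower and 2 of 6 H4 genes lower, with 0 of 3 in H3 (1 at an unadjusted p under 0.05). The median log2 fold change was 2.24 in H1, 2.24 in H2A, 0.01 in H2B, 0.78 in H3 and -0.61 in H4, and -0.04 over all genes tested. Without either 8C library, which left 1 library in the group, fewer histone genes were called, and so were fewer of all genes tested. Of the 9 genes called higher, 6 had a stem-loop in a GENCODE transcript, as did all 3 called lower and 14 of the 22 not called. A link between the loop and the direction was not tested.

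**Figure D3:**
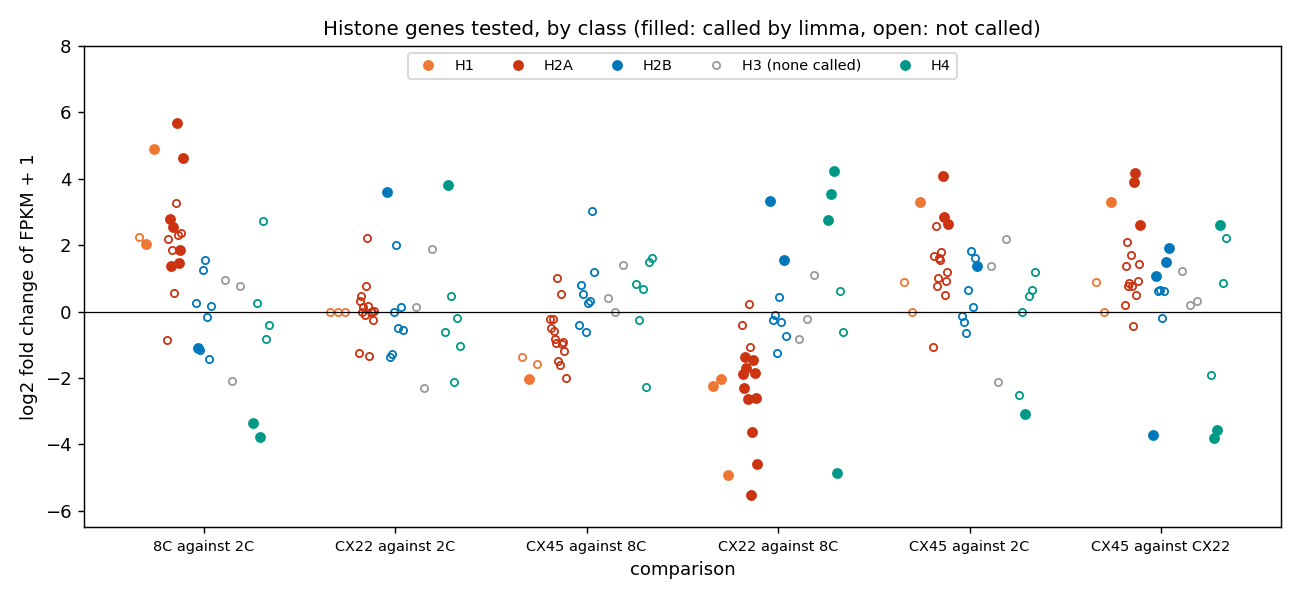
Log2 fold change of FPKM + 1 (vertical axis) of the 34 histone genes tested, for each of the 6 comparisons (horizontal axis), coloured by class; filled points were called by limma and open points were not. In 8C against 2C the H1 and most H2A points lie above 0 and the called H2B and H4 points below it. In CX22 against 8C the called H1 and H2A points and H4c4 lie below 0, and the other called points above it.

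The clustered linker histone genes were not detected in 2C and CX22. All 6 were listed at 0 in all 4 of those libraries, which allows up to 3 fragments per gene and library. H1f5 (Hist1h1b, chr13:21871701-21872494 in mm9) led the class, at 39.8 and 21.05 FPKM in 8C and at 9.60 and 8.33 in CX45, which were 564 and 339 fragments and 84 and 84. Its 4 libraries above 0 thus all belonged to 8C and CX45. H1f5 rose in 8C against 2C by a log2 fold change of 4.91 ± 0.56 (SE, adjusted p = 0.0052, limma), a fitted value on the + 1 scale and not a ratio, since 2C was at 0. It also rose in CX45 against 2C (3.31 ± 0.56, adjusted p = 0.0173, limma). That second call was lost without either CX45 library, with an adjusted p of up to 0.0666. The 8C level exceeded that of CX45 without overlap, but the difference (log2 -1.59 ± 0.45) was not called, with an adjusted p of 0.17 in limma.

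H1f1 (H1a) was at 3.46 and 4.04 FPKM in 8C and at 0 and 2.43 in CX45. H1f4 (H1e) was at 2.79 and 3.40 FPKM in 8C and at 0 in the 6 other libraries. H1f4 rose in 8C against 2C (2.03 ± 0.20, adjusted p = 0.00375, limma). The remaining members, H1f2 and H1f3, reached 2.38 and 0.914 FPKM at most and were not tested. Outside the clusters, the oocyte linker histone H1f8 took the opposite course: it was at 47.8 and 48.6 FPKM in 2C, 1.68 and 1.96 in 8C, 57.9 and 120 in CX22, against 4.56 and 6.20 in CX45, and fell in 8C against 2C (-4.12 ± 0.54, adjusted p = 0.00728, limma). H1f0, the replication-independent H1 of the body's cells, was present throughout, at 11.8 to 25.4 FPKM.

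H2A held the most abundant histone gene. H2ac23 (Hist1h2ao) was at 7.42 and 2.82 FPKM in 2C, 420 and 236 in 8C, 10.03 and 3.25 in CX22, with 155 and 66.5 in CX45. The 4 libraries of 8C and CX45 were all above 66 and the other 4 all at 10.03 or less. It rose in 8C against 2C by 5.69 ± 0.84 (log2, adjusted p = 0.00961, limma) and in CX45 against 2C by 4.07 ± 0.84 (adjusted p = 0.0273, limma). Without either 8C library both calls were lost (adjusted p of up to 0.0626 and 0.0986), and the second was also lost without either CX45 library.

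H2ac24 (Hist1h2ap) was at 8.61 and 8.44 FPKM in 2C, 60.4 and 35.4 in 8C, 2.45 and 3.16 in CX22, against 113 and 39.8 in CX45. Its 8C and CX45 libraries were all above those of 2C and CX22. The difference of 8C from 2C was not called (2.31 ± 0.73, adjusted p = 0.0646, limma), but was when the 2C libraries were counted separately (adjusted p = 0.0101, limma). That fit treats 2 libraries that differed by about sampling noise as independent. It called 6697 of all 11873 genes tested in 8C against 2C, where the main fit called 4400. Calls gained in it, here and below, are given only as a dependence on the setting. H2ac23 and H2ac24 were listed at the same 2 overlapping loci of chromosome 13, and their 300-base promoter windows share a run of 200 identical bases, so how fragments were divided between them is uncertain. Together they made up 82.2% to 84.1% of the H2A total in 8C and CX45. Without them the H2A total was 7.66 and 10.2 FPKM in 2C, 91.1 and 58.6 in 8C, 2.66 and 32.6 in CX22, with 50.8 and 22.2 in CX45. The 8C libraries were then still above all others, while those of CX22 and CX45 overlapped.

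H2ac8 (Hist1h2ae, chr13:23662532-23663089 in mm9), whose promoter is printed above, was listed at a single locus. It was at 0 and 0.139 FPKM in 2C, 31.4 and 20.4 in 8C, 0.183 and 0 in CX22, against 4.88 and 6.49 in CX45, or 0 and 1, 313 and 231, 1 and 0, and 30 and 46 fragments. The 4 groups thus fell into an order with 8C first, CX45 next and the other two near 0. H2ac8 rose in 8C against 2C (4.62 ± 0.52, adjusted p = 0.00507, limma), a call that held without each library in turn. The difference of CX45 from 8C, -1.99 ± 0.42, was not called (adjusted p = 0.107, limma). The other 5 H2A genes called higher in 8C than in 2C had log2 fold changes of 1.36 to 2.79, and their 8C means lay between 1.65 and 8.44 FPKM.

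The next 2 genes of the class by mean level had another pattern. H2ac1 (TH2A), a variant known from testis and oocytes, was at 6.07 and 9.13 FPKM in 2C, 7.31 and 1.74 in 8C, 0 and 12.1 in CX22, with 4.21 and 2.27 in CX45, with overlap between most groups. H2ac20, on chromosome 3, was at 0 and 0 FPKM in 2C, 6.34 and 11.5 in 8C, 0.218 and 16.4 in CX22, against 10.9 and 0 in CX45. Its libraries thus disagreed within CX22 and within CX45.

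H2B genes stayed low in 8C, although at least 9 H2A genes of chromosome 13 stand head to head with an H2B gene, with 167 to 305 bp between them. Only pairs in which both genes had a promoter window could be counted. In both 8C libraries the H2A gene was higher than its partner in 9 of 9 pairs, with medians of 7.31 against 0.368 FPKM and 3.41 against 0.229. The H2A gene was higher in 8 and 7 pairs in CX45, in 3 and 3 in 2C and in 6 and 3 in CX22. For the pair whose promoter is printed above, H2bc8 was at 0.121 and 1.17 FPKM in 8C where H2ac8 was at 31.4 and 20.4. The pairs share their source libraries and were not tested, and both genes of a pair were at 0 in 0 to 2 pairs per library. H2bc4 had no promoter window and was left out, though it starts at 23776068 in mm9, near H2ac6, which ends at 23775828. H2ac6 was at 4.14 and 1.52 FPKM in 8C, where H2bc4 was at 1.65 and 1.15. In CX45, however, H2ac6 was at 0.559 and 1.29 FPKM and H2bc4 at 21.3 and 16.2. H2ac6 was at 0 in 2C and CX22, where H2bc4 was at 5.14 to 6.13 FPKM.

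**Figure D4:**
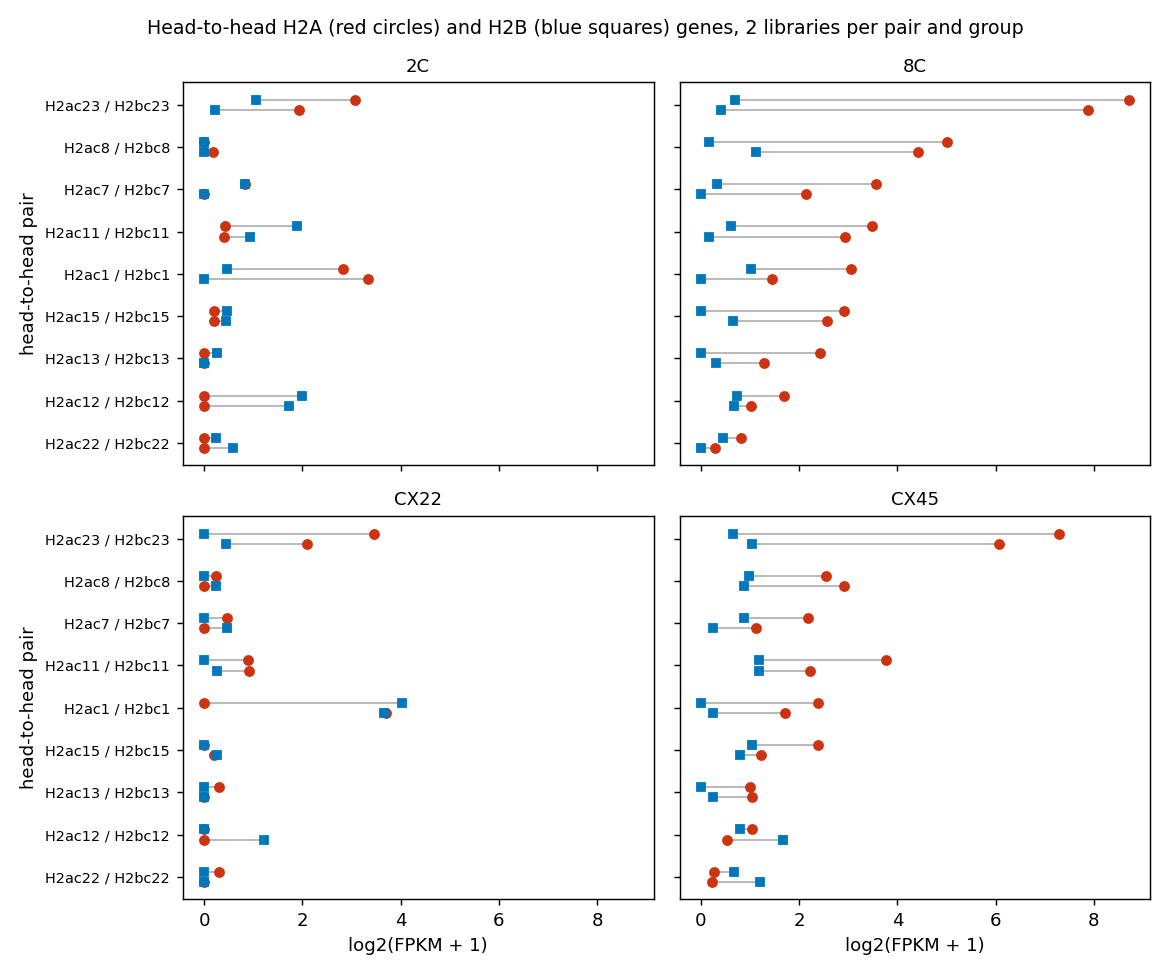
Levels of the H2A gene (red circles) and the H2B gene (blue squares) of 9 head-to-head pairs, as log2(FPKM + 1) on the horizontal axis, with a panel per group and 2 lines per pair for the 2 libraries. In 8C every red circle lies to the right of its blue square (9 of 9 pairs in both libraries), and the H2B genes are at 1.17 FPKM or less.

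H2bc4 (Hist1h2bc) was the highest H2B gene by mean. It was at 5.14 and 5.67 FPKM in 2C, 1.65 and 1.15 in 8C, 5.90 and 6.13 in CX22, with 21.3 and 16.2 in CX45, so 8C was lowest and CX45 highest, without overlap. Nearly all of this came from an entry that spans 8282 bp, against 469 bp for the intronless entry, which was above 0 in 1 library only (0.324 FPKM). H2bc4 was higher in CX22 than in 8C (1.55 ± 0.36, adjusted p = 0.0259, limma). Its excess in CX45 over 8C, 3.04 ± 0.36, missed the call (adjusted p = 0.0545, limma) and passed it with separate 2C libraries (adjusted p = 0.00747, limma). In that fit 1037 of all genes tested were called between CX45 and 8C, against 79 in the main fit. H2bc11, a low gene at 2.71 and 0.907 FPKM in 2C and 0.522 and 0.115 in 8C, fell in 8C (-1.11 ± 0.29, adjusted p = 0.04, limma), on 14 and 5 fragments against 4 and 1. Its call was lost in 11 of 17 alternatives, among them those without 2C replicate 1, either 8C library or either CX45 library (adjusted p of up to 0.18).

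H2bc1 encodes TH2B, a variant known from testis and oocytes and the head-to-head partner of H2ac1. It was at 0.385 and 0 FPKM in 2C, 1.04 and 0 in 8C, 15.4 and 11.7 in CX22, against 0 and 0.182 in CX45, and its CX22 libraries held 65 and 61 fragments against 8 or fewer elsewhere. H2bc1 rose in CX22 against 2C (3.59 ± 0.56, adjusted p = 0.0459, limma), against 8C (3.34 ± 0.46, adjusted p = 0.00637, limma), and CX45 was below CX22 (-3.73 ± 0.46, adjusted p = 0.00708, limma). The call against 2C was lost in 7 of 8 fits without 1 library, all but that without 2C replicate 1 (adjusted p of 0.0373 to 0.113); the others held in all 8. The 6 listed sperm genes summed to 42.9 and 33.2 FPKM in CX22, 19.6 and 18.7 in 2C, 0 and 0 in 8C and 0 and 4.91 in CX45. Of these, the protamine gene Prm2 was at 0.655 and 28.7 FPKM in CX22 and Tnp1 at 42.2 and 0. The 2 CX22 sums thus came mostly from different genes. In 2C Prm2 was at 17.1 and 16.7 FPKM, and Tnp2 was at 0 in all libraries. The part of sperm transcripts in the H2bc1 difference was not tested. H2bc18, next in the class, was at 15.4 FPKM in 1 CX22 library and at 0 in the other, and at 3.36 or less elsewhere.

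H3 was low in every group, at 1.52 to 20.5 FPKM for the whole class, and none of its 3 tested genes was called by limma in any of the 6 comparisons (1 gene at an unadjusted p under 0.05 in each of the 3 comparisons with 2C). H3c6 (Hist1h3e) was at 5.49 and 4.803 FPKM in 2C and at 1.07 or less in the 6 other libraries. That difference was -2.09 ± 0.66 for 8C against 2C (adjusted p = 0.0662, limma) and became a call with separate 2C libraries (adjusted p = 0.0123, limma), a fit that called 6697 of all 11873 genes tested. H3c8 was at 12.5 and 0 FPKM in CX22, with 1.11 and 8.97 in CX45, and H3c1 at 0 and 5.65 in CX45, so their higher values came from single libraries of a group. By contrast H3f3a and H3f3b, which encode the replacement histone H3.3 from polyadenylated mRNAs, were at 150 to 1027 and 1826 to 3480 FPKM.

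H4 genes encode the same protein, and which of them supplied the H4 transcripts differed between groups. H4c4 (Hist1h4d, chr13:23673471-23673838 in mm9) was at 14.9 and 15.02 FPKM in 2C, 137 and 81.3 in 8C, 6.11 and 0.898 in CX22, against 26.4 and 17.1 in CX45. H4c3 (Hist1h4c, chr13:23789953-23790327) was at 20.4 and 22.2 FPKM in 2C, 0.299 and 1.05 in 8C, 32.7 and 27.3 in CX22, with 0.726 and 2.94 in CX45. H4c1 (Hist1h4a) was at 12.8 and 12.8 FPKM in 2C, 0.369 and 0.325 in 8C, 5.62 and 11.4 in CX22, against 0.399 and 3.12 in CX45. H4c3 and H4c1 were therefore low in 8C, where H4c4 was highest, and in CX45, and in neither did a 2C or CX22 library overlap with 8C or CX45.

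H4c4 made up 96.1% and 93.0% of the H4 total in 8C, 65.1% and 39.2% in CX45, 27.4% and 25.8% in 2C and 8.95% and 1.42% in CX22. H4c3 made up 37.4% and 38.2% in 2C, 47.9% and 43.2% in CX22, 0.21% and 1.2% in 8C and 1.79% and 6.72% in CX45. These shares leave out H4f16, an H4 gene outside the member rule by its current symbol but named Hist4h4 before. It was at 29.8 and 32.1 FPKM in 2C, above every member of the class there, and lower elsewhere, with 1.86 and 3.41 FPKM in CX45, 1.15 and 2.13 in 8C, and CX22 at 0 and 4.89. With it in the total, the shares in 2C became 35.3% and 35.5% for H4f16, 24.2% and 24.6% for H4c3 and 17.7% and 16.6% for H4c4, while H4c4 still made up 95.4% and 90.8% in 8C and H4c3 47.9% and 40.1% in CX22. H4c3 fell in 8C against 2C (-3.77 ± 0.69, adjusted p = 0.016, limma), as did H4c1 (-3.36 ± 0.84, adjusted p = 0.0362, limma). Without either 8C library both calls were lost, with adjusted p of up to 0.0837 and 0.146. The excess of H4c4 in 8C over 2C, 2.74 ± 0.89, was not called (adjusted p = 0.0711, limma). It was called with separate 2C libraries (adjusted p = 0.0115, limma), a fit that called 6697 of all 11873 genes tested.

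H4c14 (Hist2h4), on chromosome 3, was at 19.7 and 8.60 FPKM in CX22, at 0.437 in 1 8C library and at 0 in the 5 others, which is 74 and 40 fragments against 3. It rose in CX22 against 2C (3.82 ± 0.58, adjusted p = 0.0422, limma), a call lost without either 8C or either CX45 library (adjusted p of up to 0.164). With H2bc1 it was one of the 2 histone genes, 5.88% of the 34, called between these groups, where 3.89% of all genes tested were called (0.598% higher and 3.29% lower).

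**Figure D5:**
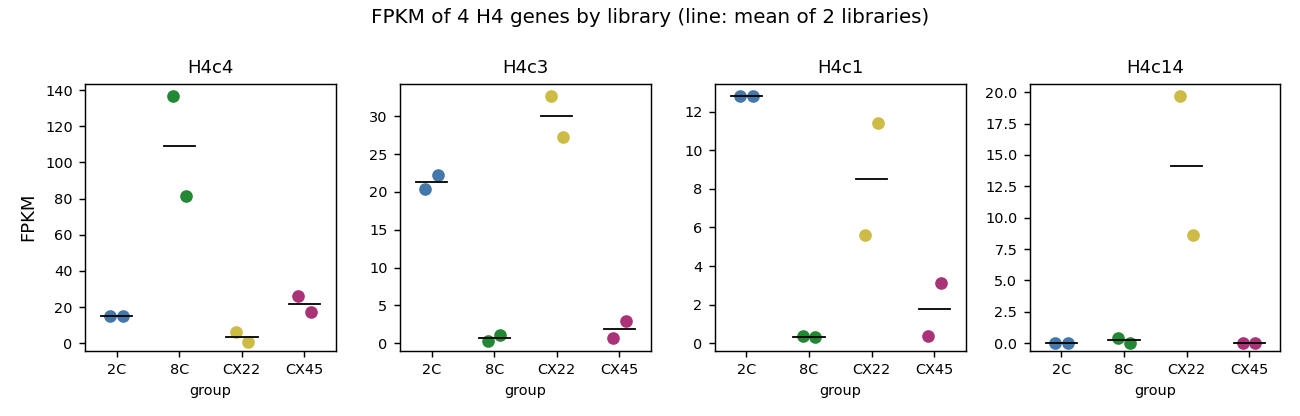
FPKM (vertical axis, linear, separate scale per panel) of 4 H4 genes in each library; points are libraries and lines the mean of the 2 libraries of a group. H4c4 is highest in 8C (137 and 81.3), H4c3 and H4c1 are high in 2C and CX22, and H4c14 is above 1 FPKM in CX22 only.

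Comparisons of CX22 and CX45 with the stage groups reuse the same libraries and are given side by side, not as independent evidence. CX22 against 8C gave the most histone calls, 20 of 34 (58.8%), where 41.3% of all genes tested were called (19.9% higher and 21.4% lower). Lower in CX22 were 3 of 3 H1 genes, 11 of 14 H2A genes and H4c4, and higher were 2 of 8 H2B genes (H2bc1 and H2bc4) and 3 of 6 H4 genes (H4c3, H4c1 and H4c14). The log2 fold change was -5.53 ± 0.68 for H2ac23 (adjusted p = 0.00497, limma), and -4.86 ± 0.73 for H4c4 (adjusted p = 0.00808, limma). H4c3 was higher by 4.24 ± 0.56 (adjusted p = 0.00579, limma). Fewer histone genes were called in fits without either 8C library or either CX22 library. Of all genes tested, fewer were called without either 8C library, but not without either CX22 library. The calls of H1f1, H2bc4, H4c4, H4c3 and H4c14 were each lost in at least 1 of these fits, with adjusted p of up to 0.176.

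CX45 against 8C gave 1 histone call of 34 (2.94%), where 0.665% of all genes tested were called (0.463% higher and 0.202% lower). H1f4, at 0 in both CX45 libraries, fell (-2.03 ± 0.16, adjusted p = 0.0443, limma), and its call was lost without each of the 6 8C, CX22 and CX45 libraries (adjusted p of up to 0.165). At an unadjusted p under 0.05, 8 of the 34 histone genes differed (23.5%), 3 higher and 5 lower in CX45, near the 19.3% of all genes tested, of which 1778 were higher and 508 lower. The median log2 fold change was -1.59 in H1, -0.88 in H2A, 0.42 in H2B, 0.41 in H3 and 0.76 in H4, and 0.31 over all genes tested. The 6 listed blood genes summed to 303 and 361 FPKM in CX45 and to 12.3 and 32.0 in 8C. In 2C they summed to 110.5 and 110.8 FPKM and in CX22 to 33.8 and 84.4. Most of each sum was the globin gene Hba-a1, at 286 and 347 FPKM in CX45 and 106 and 104 in 2C. The other globin gene of the list, Hbb-b1, was at 0.7855 FPKM or less in all libraries. The white-cell genes of that list did not follow a single pattern. Lyz2 (lysozyme) was at 9.61 and 7.45 FPKM in CX45, 10.2 and 11.8 in CX22, 0 and 1.92 in 2C and 0 and 0 in 8C, and limma called it higher in CX45 than in 2C and in CX22 than in 8C. Cd74 was at 6.01 and 5.28 FPKM in CX45, 1.69 and 3.27 in 8C, 4.35 and 5.03 in 2C and 0.0836 and 0.405 in CX22, and was called lower in CX22 than in 8C and higher in CX45 than in CX22. Ptprc, which marks white blood cells, was at 0.0701 or less in all libraries. Their part in these differences was not tested.

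CX45 against 2C gave 6 calls of 34 (17.6%, where 29.8% of all genes tested were called, 16.2% higher and 13.6% lower): H1f5, H2ac23, H2ac24, H2ac8 and H2bc6 were higher and H4c3 was lower. H4c3 fell by 3.10 on the log2 scale, with an SE of 0.69 (adjusted p = 0.0322, limma). H2bc6, an H2B gene at 0.748 and 0.175 FPKM in 2C and 2.63 and 2.90 in CX45, rose by 1.37 ± 0.28 (adjusted p = 0.0279, limma). Its values in the 2 CX45 libraries came from different entries: 2.63 FPKM in replicate 1 from one that spans 37425 bp, with the intronless entry of 445 bp at 0, and 2.72 in replicate 2 from the intronless entry, with 0.178 from the long one. No single entry was thus high in both, and H2bc6 did not pass the filter on low values when only the highest entry of each gene was used. Without either 8C library or either CX45 library fewer histone genes were called, and so were fewer of all genes tested. H2ac23, H2ac24, H2bc6 and H4c3 each lost the call in at least 3 of 8 fits without 1 library, with adjusted p of up to 0.101.

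CX45 against CX22 gave 11 calls of 34 (32.4%, where 36.4% of all genes tested were called, 23% higher and 13.5% lower), 8 higher and 3 lower in CX45. The higher genes were H1f5, H2ac23, H2ac24, H2ac8, H4c4 and the H2B genes H2bc4, H2bc6 and H2bc11, and the lower ones H2bc1, H4c3 and H4c14. The largest were 4.17 ± 0.59 for H2ac24 (adjusted p = 0.00937, limma) and -3.82 ± 0.47 for H4c14 (adjusted p = 0.00713, limma). H2bc4 (1.48 ± 0.36, adjusted p = 0.033, limma) and H4c4 (2.60 ± 0.73, adjusted p = 0.0489, limma) lost their calls in 6 and 5 of 8 fits without 1 library, with adjusted p of up to 0.117 and 0.206, and H2ac23 lost its call without CX22 replicate 2 or CX45 replicate 1 (adjusted p of up to 0.0763).

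Genes that make or process histone mRNA were described from a list of 39, of which 37 were tested. In 8C against 2C, 14 of the 37 were called, 5 higher and 9 lower, with a median log2 fold change of 0.18. Over all genes tested 37.1% were called (16.3% higher and 20.7% lower), and the median was -0.04. Slbp, which binds the stem-loop, was at 272 and 259 FPKM in 2C, 116 and 107 in 8C, 153 and 199 in CX22, with 186 and 169 in CX45, and fell in 8C (-1.25 ± 0.26, adjusted p = 0.0237, limma). Lsm10, a subunit of the U7 particle that directs cleavage after the loop, was at 115 and 121 FPKM in 2C, 16.3 and 11.5 in 8C, 121 and 254 in CX22, against 92.3 and 58.0 in CX45, and fell in 8C (-3.01 ± 0.58, adjusted p = 0.0186, limma). So did Casp8ap2, which encodes the processing factor FLASH (-2.09 ± 0.33, adjusted p = 0.0108, limma). Eri1, an exonuclease that trims histone mRNA ends, was at 0.131 or less in 2C, 23.8 and 20.1 FPKM in 8C, 0 and 3.0 in CX22, with 11.9 and 11.2 in CX45, and rose in 8C (4.38 ± 0.90, adjusted p = 0.0222, limma). Npat, the coactivator of histone transcription, was at 4.83 to 17.5 FPKM and was called in none of the 6 comparisons (adjusted p of 0.169 or more, limma). Lsm11 was at 1.37 FPKM or less in all libraries and was not tested.

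In the other comparisons, limma called 7 of these 37 higher and 7 lower in CX22 against 8C, where 41.3% of all genes tested were called. It called 6 higher and 3 lower both in CX45 against 2C and in CX45 against CX22. Of all genes tested, 29.8% and 36.4% were called in those 2 comparisons. In CX22 against 2C and in CX45 against 8C limma called 0, with 4 (10.8%) and 10 (27.0%) at an unadjusted p under 0.05, against 16.2% and 19.3% of all genes tested. Of the variant histones outside the clusters, 13 of 37 listed were tested. In 8C against 2C, 4 of the 13 were called higher and 2 lower, where 37.1% of all genes tested were called (16.3% higher and 20.7% lower). H2az1 (H2A.Z), at 535 and 542 FPKM in 2C and 2157 and 1765 in 8C, rose by 1.86 ± 0.26 (adjusted p = 0.00864, limma). H3f3a rose by 2.59 ± 0.28 (adjusted p = 0.00467, limma), and Cenpa, the centromeric H3, by 1.90 ± 0.36 (adjusted p = 0.0176, limma). In CX22 against 2C and in CX45 against 8C limma called 0 of the 13, with 1 (7.69%) and 5 (38.5%) at an unadjusted p under 0.05, beside the same shares of all genes.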

How the data were processed

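Embryo cDNA was amplified and sequenced by Smart-seq (BGISEQ500), per the labels' protocols. The submitters' processing notes name mm9, HISAT2 4.8.2 and Cufflinks 2.2.1. Their settings and annotation release are not stated there. The authors deposited FPKM per RefSeq transcript and locus for each of the 8 libraries.

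Of 41876 entries, 41685 matched a symbol in RefSeq or GENCODE tables and 191 did not. FPKM were summed per gene, so near-identical copies are uncertain: 11 members had more than 1 entry and 8 accessions stood at 2 loci. Genes reaching 1 FPKM in 2 or more libraries were fitted as log2(FPKM + 1) in limma 3.58.1 (R 4.3.3), all 4 groups together, two-sided, with variance moderation along a trend. The mean of both 2C libraries entered as 1 sample, whose variance is assumed to equal that of the rest. The fit was checked on simulated data. Nothing says that replicates came from separate animals or cultures, so p-values measure the spread between these libraries, which may be technical.

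Depth was read from low values of intronless genes, of which 97.8% to 100% were whole numbers of fragments within 0.05. Without molecular identifiers, amplified fragments are not independent molecules.

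Named genes were all H1 members, the 3 highest of each other class, up to 2 called members per class, direction and comparison with the largest fold change and groups that did not overlap, and fixed processing, variant and stage genes. H2ac1, H2ac20, H2bc8, H4f16, the contamination markers and further called genes listed by name fall outside it and were taken up after their values were seen. Members and lists were chosen with earlier results of these data known. Alternatives were other pseudocounts, no filter, quantile or median-of-ratios scaling, separate 2C libraries, only the groups compared, a replicate block, the highest entry per gene, older symbols, and leaving out each library; class totals without H2ac23 and H2ac24 were added after seeing the data.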

Additional observations from a re-analysis of the deposited data

How the results depend on the processing

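The number of histone genes called depended on the settings, and its cause was not tested. The number called among all genes tested changed as well and is given beside it in brackets. With no filter, 58 histone genes among 17496 genes were tested, in place of 34 among 11873. In 8C against 2C (12 called) it was 7 with a pseudocount of 5, 6 with no filter on low values, 21 with 8 separate libraries, 23 with only the groups compared, and 4 to 12 without 1 library. In CX22 against 2C (2 called, and 462 of all genes) it was 0 with a pseudocount of 0.1 (467) and 1 with a pseudocount of 5 (195). It was also 0 with no filter (433), with quantile normalization (261) and with the replicate block (131). In CX45 against 8C (1 called, and 79 of all genes) it was 2 with a pseudocount of 0.1 (184) and 3 with 8 separate libraries (1037). It was 0 with a pseudocount of 5, no filter, quantile normalization, median-of-ratios scaling, only the groups compared or the replicate block. In those settings 0 of all genes tested were called too. In CX22 against 8C (20 called, and 4906 of all genes) it was 10 with a pseudocount of 5 (3860) and 13 with no filter (4081). In CX45 against 2C (6 called, and 3536 of all genes) it was 13 with 8 separate libraries (6109) and 14 with only the groups compared (6929). It was 3 with the replicate block (2663). Leaving out 1 library changed the number in some fits of each of these comparisons, among histone genes and among all genes tested. Deviations of same-numbered replicates correlated at -0.0009 to 0.105 between groups. With 2 libraries per group, and 2C libraries that differed by about sampling noise, this cannot show whether the numbers pair the libraries. Of 33 named calls, 0 changed direction under any alternative; 17 were lost without either 8C library, 12 and 9 without the CX45 libraries and 8 with the replicate block. The log2 ratio of the H2B total in 8C against 2C turned to 0.12 with quantile normalization, and that of the H4 total in CX22 against 2C to -0.36 when genes with older histone symbols were added, among them H4f16 at 29.8 and 32.1 FPKM in 2C and 0 and 4.89 in CX22. Genes below about 3 fragments cannot be told from 0 at these depths.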
